A study of Mus musculus with 4 samples.

Results

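Acod1, the gene for the enzyme that makes itaconate, was followed in RAW264.7 cells, a mouse macrophage line. With it were followed 8 genes listed for the citric acid cycle: Cs, Aco1, Idh3a, Ogdh, Sucla2, Suclg1, Fh1 and Mdh2. These 8 are called cycle genes here, although Aco1 encodes the cytosolic aconitase and not a mitochondrial enzyme. The 9 genes were chosen by name from 40213 gene symbols per library, and all 9 were among the 11588 genes with enough signal to be tested. The cells were cultured with material labelled CuNZ@Gel (2 libraries) or Gel (2 libraries) for 48 h after they had attached, and the titles alone assign the Gel libraries, because the treatment text speaks of CuNZ@Gel only. CuNZ is not spelled out in the labels, and the series title speaks of a nanozyme, a nanomaterial with enzyme-like activity, in a sprayable hydrogel for diabetic wounds. Untreated cells were not analysed here, so each comparison is between the libraries titled CuNZ@Gel and those titled Gel. All cells came from 1 line, and the labels do not say that replicates were separate cultures. The p-values therefore rest on differences between single libraries, and these may be technical.

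The citric acid cycle burns acetyl groups in the mitochondrion: citrate is made, turned into isocitrate through cis-aconitate, oxidised to 2-oxoglutarate and then to succinyl-CoA, and carried through succinate, fumarate and malate back to oxaloacetate. ACOD1, also known as IRG1, draws cis-aconitate out of this sequence and removes its carboxyl group to give itaconate. Macrophages are known for inducing Acod1 strongly when they meet microbial products or interferons. Itaconate inhibits succinate dehydrogenase and can modify KEAP1, the inhibitor of the antioxidant factor NRF2.

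Levels are given as scaled CPM, a gene's reads relative to all reads of its library and divided by 1 further factor per library, and changes as differences of log2(scaled CPM + 1), CuNZ@Gel minus Gel, with the standard error (SE) of the limma fit. Library totals worked out from the values were 13717000 to 14886000 reads. The ribosomal RNA-like transcript Gm26917 took 7.10% to 7.18% of the reads in CuNZ@Gel and 11.8% to 11.9% in Gel, and the log2 change of the tested genes correlated with log2 transcript length (Pearson r = 0.274 across genes, which are not independent replicates). The 8 macrophage markers summed to 8681 and 8410 scaled CPM in CuNZ@Gel, against 5237 and 5414 in Gel. Most of each sum was Lyz2 alone, with 6000 and 5776 in CuNZ@Gel against 3004 and 3155 in Gel. All 8 were tested, with 5 raised and 2 lowered (Cd68 and Fcgr1). These counts stand beside 32.2% raised and 34.8% lowered of all tested genes. The 6 fibroblast markers summed to 0.126 and 0.190 scaled CPM in CuNZ@Gel and to 0.218 and 0.311 in Gel, with Lum at 0 in every library. Cd3e, Cd3g and Cd2 of T cells, Ms4a1 of B cells, and S100a9 and Mpo of neutrophils were at 0 in all 4 libraries. The 2 B cell markers summed to 1.20 and 0.571 in CuNZ@Gel and to 0.145 and 0 in Gel. T cell markers summed to 0.126 and 0.444 in CuNZ@Gel and to 0 in both Gel libraries, and neutrophil markers to 0.441 and 0.951 in CuNZ@Gel and 0.435 and 0.156 in Gel. Of 4 endothelial markers, which summed to 7.56 and 8.51 in CuNZ@Gel and 2.17 and 2.65 in Gel, only Vwf was abundant enough to be tested, and it rose, while Cdh5, Kdr and Tek stayed at or below 0.571. The part of these markers in the results was not tested. In bulk RNA, fewer cells with a transcript and less of it per cell cannot be told apart.

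The 250 bases before the start of Acod1 and of Fh1 are shown because these genes had the highest and the lowest change among the 9, a choice made after their values were seen. Both are RefSeq sequences of build GRCm38.p6, while the submitters' processing notes name GRCm39 for the expression values. The Acod1 window lies at chr14:103046762-103047011 on the plus strand and the Fh1 window at chr1:175625636-175625885 on the minus strand. Capitals mark TATAAA, and CCAAT where it reads as ATTGG on the strand shown.
Acod1: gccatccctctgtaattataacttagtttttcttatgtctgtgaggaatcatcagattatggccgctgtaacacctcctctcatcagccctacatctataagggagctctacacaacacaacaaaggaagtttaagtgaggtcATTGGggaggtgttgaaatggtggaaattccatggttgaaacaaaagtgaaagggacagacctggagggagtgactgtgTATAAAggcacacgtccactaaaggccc
Fh1: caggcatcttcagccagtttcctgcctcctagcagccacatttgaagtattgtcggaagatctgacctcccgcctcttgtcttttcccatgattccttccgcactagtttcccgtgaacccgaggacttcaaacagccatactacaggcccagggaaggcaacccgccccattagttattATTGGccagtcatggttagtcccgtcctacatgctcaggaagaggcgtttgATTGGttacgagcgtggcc
The TATAAA of Acod1, a TATA box, begins 28 bases before the start, and no window of the other 7 genes in the table held one. It occurs in 12.4% of the 32851 promoter windows in the table and in 6.60% of the 11554 windows of tested genes. For the motifs below, the share of all windows is followed by that of the tested genes' windows. Acod1 held 2 CpG dinucleotides in these bases, against 9 to 35 in the windows of the other 7 genes and a median of 6 over all windows. Of the 9 genes, 8 matched the table by symbol, without Idh3a.

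Further motifs were searched on both strands of the same windows. CCAAT was found in windows of Acod1, Cs, Ogdh and Fh1, and is in 33.8% and 36.1% of windows. TGACGTCA, the cyclic AMP response element, was found in 3 of the 6 Ogdh windows, which overlap one another, and in Mdh2, and is in 1.55% and 2.67% of windows. TGACNNNGC, the antioxidant response element read by NRF2, was found in Sucla2 (10.2% and 11.6%), and GAAANNGAA, an interferon response core, in Suclg1 (7.13% and 6.25%). CACGTG was found in 3 windows of Ogdh (6.02% and 8.46%), and its matches 141 and 162 bases before the start are the same bases in overlapping windows. The kB consensus of NF-kB was found in 1 window of Ogdh and in Sucla2 (7.25% and 8.78%). All shares are per window, so a gene with 6 windows has more room for a match. TGANTCA (6.75% and 4.41%), which can share bases with TGACNNNGC, and CCGGAAG (6.91% and 14.3%) were in none of the members' windows. A match is a match of letters and does not show a bound site.

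Acod1 was abundant in CuNZ@Gel and low in Gel. It stood at 186 and 181 scaled CPM in the CuNZ@Gel libraries, against 7.32 and 7.71 in the Gel libraries, on 2953 and 2856 reads in CuNZ@Gel and 101 and 99 reads in Gel. Both CuNZ@Gel libraries lay far above both Gel libraries. The means were 184 ± 3.35 scaled CPM in CuNZ@Gel and 7.51 ± 0.275 in Gel (SD, n = 2 each), a 24.4-fold difference. On the log2 scale the change was 4.44 (SE 0.09, limma adjusted p = 8.61e-20), with a 95% interval from 4.26 to 4.62. Acod1 ranked as the gene with the fourth smallest p and the fifth largest rise of all 11588 tested genes.

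Of the 9 genes, 4 rose (Acod1, Aco1, Idh3a and Ogdh), 2 fell (Fh1 and Suclg1) and 3 did not pass the test (Cs, Sucla2 and Mdh2). The 6 calls stand beside 67.1% of all tested genes called, 32.2% raised and 34.8% lowered, so their number is no higher than the background. No overlap between the groups was seen for 8 of the 9 genes, against 83.2% of all tested genes. The median log2 change of the 9 was -0.09, beside -0.03 over all tested genes. The genes differed from one another in size and direction. On the log2 scale the 8 cycle genes spanned -0.70 (Fh1) to 0.84 (the cytosolic Aco1), and Acod1 stood at 4.44.

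**Figure D1:**
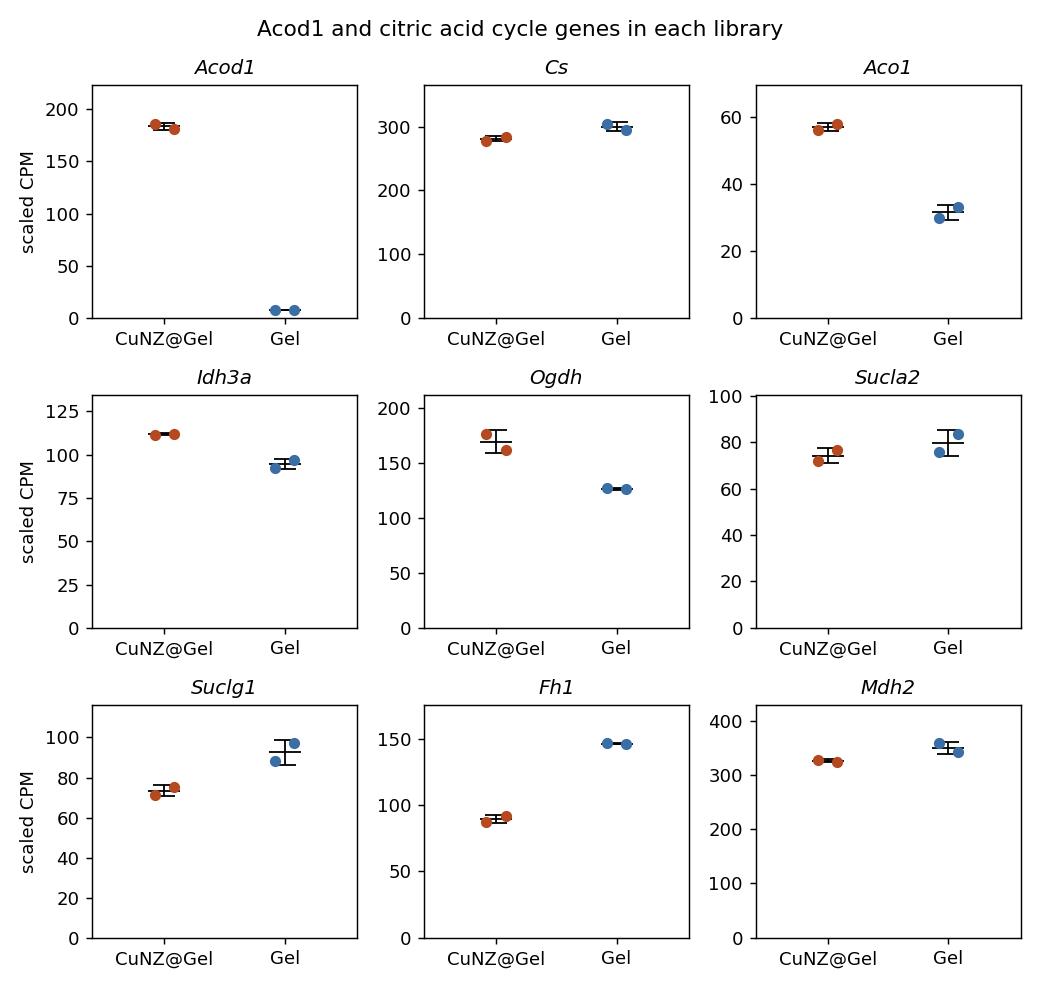
Scaled CPM of Acod1 and the 8 citric acid cycle genes in each library, with points for single libraries and bars for the mean ± SD (n = 2 per group); CuNZ@Gel is left of Gel and each panel has its own axis from 0. Acod1 goes with 186 and 181 in CuNZ@Gel against 7.32 and 7.71 in Gel, while Cs, Sucla2 and Mdh2 differ little.

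The entry of the cycle is citrate synthase, encoded by Cs, which joins acetyl-CoA to oxaloacetate. Its levels were 278 and 284 scaled CPM in CuNZ@Gel, against 304 and 294 in Gel. The groups lay apart but close together. The log2 change was -0.09 (SE 0.06, adjusted p = 0.176), with a 95% interval from -0.22 to 0.03, and it was 0.10 with libraries scaled by total reads only.

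Aco1 encodes the cytosolic aconitase, which turns into the iron regulatory protein IRP1 when it loses its iron-sulfur cluster. It had 56.3 and 58.1 scaled CPM in CuNZ@Gel, against 30.0 and 33.2 in Gel. Both CuNZ@Gel libraries were the higher ones, by 1.81-fold in the means. This was the second largest rise of the 9 genes, at 0.84 (SE 0.09, adjusted p = 3.52e-08), and 90.0% of the tested genes had a lower change.

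Idh3a encodes the catalytic subunit of the NAD-dependent isocitrate dehydrogenase, which makes 2-oxoglutarate in the cycle. Libraries of CuNZ@Gel had 111 and 112 scaled CPM, against 92.4 and 96.7 in Gel. The small rise kept the groups apart, at 0.24 (SE 0.07, adjusted p = 0.00434). Without Gel replicate 1 it was 0.21 and missed the threshold (adjusted p = 0.0687).

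Idh3g and Idh3b encode the regulatory subunits of the same enzyme. Idh3g fell, with 128 and 136 scaled CPM in CuNZ@Gel against 197 and 201 in Gel, a log2 change of -0.59 (SE 0.06, adjusted p = 6.41e-08). Idh3b had 113 and 114 in CuNZ@Gel against 125 and 136 in Gel, a smaller change of -0.20 (adjusted p = 0.0157). That call for Idh3b was lost without Gel replicate 2 (-0.13, adjusted p = 0.242), with no filter (adjusted p = 0.0618), with the replicate block, in which equal replicate numbers are paired (adjusted p = 0.0505), with total reads only (-0.01) and when transcript length and GC content were corrected for (-0.10).

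Ogdh encodes the E1 subunit of the 2-oxoglutarate dehydrogenase complex, which makes succinyl-CoA. It had 177 and 162 scaled CPM in CuNZ@Gel, against 127 and 126 in Gel. The CuNZ@Gel libraries differed from each other but were both above Gel. The change was 0.41 (SE 0.07, adjusted p = 1.34e-05). Dlst, the E2 subunit of that complex, had 123 and 125 in CuNZ@Gel against 113 and 107 in Gel (0.17, adjusted p = 0.0270). The Dlst call was lost without Gel replicate 1 (0.22, adjusted p = 0.0527), without Gel replicate 2 (0.13, adjusted p = 0.238), without CuNZ@Gel replicate 2 (0.16, adjusted p = 0.0739), with no filter (adjusted p = 0.0527) and with the replicate block (adjusted p = 0.0839). Dld, the E3 subunit that also serves pyruvate dehydrogenase, fell, with 184 and 188 in CuNZ@Gel against 279 and 298 in Gel (-0.63, adjusted p = 1.52e-08).

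Succinyl-CoA synthetase pairs the alpha subunit SUCLG1 with a beta subunit that sets the nucleotide formed, SUCLA2 for ATP and SUCLG2 for GTP. Suclg1 had 71.5 and 75.3 scaled CPM in CuNZ@Gel, against 88.3 and 97.0 in Gel. Both CuNZ@Gel libraries were lower, and the change was -0.33 (SE 0.07, adjusted p = 5.44e-04). With total reads only the change of Suclg1 was -0.14 and missed the threshold (adjusted p = 0.0930). Sucla2 was the only gene of the 9 whose groups overlapped, with 71.9 and 76.6 in CuNZ@Gel against 75.7 and 83.7 in Gel. Its change of -0.10 (SE 0.08, adjusted p = 0.253) had a 95% interval from -0.26 to 0.06, and the sign turned with total reads only (0.09). Suclg2, the GTP-forming partner, fell: 64.1 and 57.5 scaled CPM in CuNZ@Gel stood against 86.9 and 90.1 in Gel (-0.54, adjusted p = 3.28e-06).

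Fumarase, encoded by Fh1, hydrates fumarate to malate, and its transcript fell more than any other of the 9. Its levels were 87.8 and 91.6 scaled CPM in CuNZ@Gel, against 147 and 146 in Gel. The Gel libraries were close to each other and well above both CuNZ@Gel libraries. The mean in CuNZ@Gel was 89.7 ± 2.71 and in Gel 146 ± 0.361 (SD, n = 2 each), a log2 change of -0.70 (SE 0.07, adjusted p = 8.62e-09) with a 95% interval from -0.84 to -0.56. Of the tested genes, 13.2% had a lower change.

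Mdh2 encodes the mitochondrial malate dehydrogenase, which closes the cycle. It had 328 and 324 scaled CPM in CuNZ@Gel, against 358 and 342 in Gel. The groups lay apart by little, and the test was not passed (-0.10, SE 0.06, adjusted p = 0.136), with a 95% interval from -0.22 to 0.02. The sign turned with total reads only (0.09) and after the length and GC correction (0.11). Mdh1, the cytosolic enzyme, fell, with 198 and 204 scaled CPM in CuNZ@Gel against 247 and 254 in Gel (-0.32, adjusted p = 1.13e-04), but not with total reads only (-0.13, adjusted p = 0.0709).

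Among the subunits of succinate dehydrogenase, the enzyme that itaconate inhibits, Sdhb fell. It had 112 and 128 scaled CPM in CuNZ@Gel, against 153 and 157 in Gel (-0.37, adjusted p = 1.08e-04), and the call was lost after the length and GC correction (-0.09, adjusted p = 0.179). Sdhc was at 101 and 97.7 in CuNZ@Gel and at 110 and 112 in Gel, a change of -0.16 that only just passed (adjusted p = 0.0419). The call for Sdhc was lost without Gel replicate 1 (-0.17, adjusted p = 0.137), without Gel replicate 2 (-0.15, adjusted p = 0.193), without CuNZ@Gel replicate 2 (-0.14, adjusted p = 0.148) and in 4 other alternatives, and its sign turned with total reads only (0.03). Sdha, the flavoprotein subunit, had 245 and 266 scaled CPM in CuNZ@Gel against 261 and 237 in Gel (0.04, adjusted p = 0.629), and Sdhd, a membrane anchor, had 103 and 117 in CuNZ@Gel against 106 and 107 in Gel (0.04, adjusted p = 0.648). The groups overlapped for both and neither passed, although both passed with total reads only (0.23 each) and Sdhd after the length and GC correction (0.26). Both also lay below 0 in the fit without CuNZ@Gel replicate 2 (-0.02 and -0.06), as did Sdha without Gel replicate 2 (-0.03).

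The isocitrate dehydrogenases that use NADP moved in opposite directions. Idh1, the cytosolic enzyme, rose, with 402 and 417 scaled CPM in CuNZ@Gel against 149 and 149 in Gel (1.45, SE 0.06, adjusted p = 1.38e-14). Idh2, the mitochondrial enzyme, fell, with 61.3 and 60.7 in CuNZ@Gel against 186 and 169 in Gel (-1.53, SE 0.07, adjusted p = 8.88e-14). No library of one group reached the range of the other for either gene, as was so for 83.2% of all tested genes.

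Taking the 12 partner genes as a list, 2 rose (Idh1 and Dlst), 8 fell and 2 did not pass. Of all tested genes, 32.2% were raised and 34.8% lowered. The median log2 change of the partners was -0.26, beside -0.03 over all tested genes. With total reads only, which moved the median of all genes to 0.15, 4 partners rose and 5 fell, and their median was -0.07. Idh1 alone was called as raised without Gel replicate 1, without Gel replicate 2 or without CuNZ@Gel replicate 2. After the length and GC correction 3 rose and 6 fell (median -0.12).

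**Figure D2:**
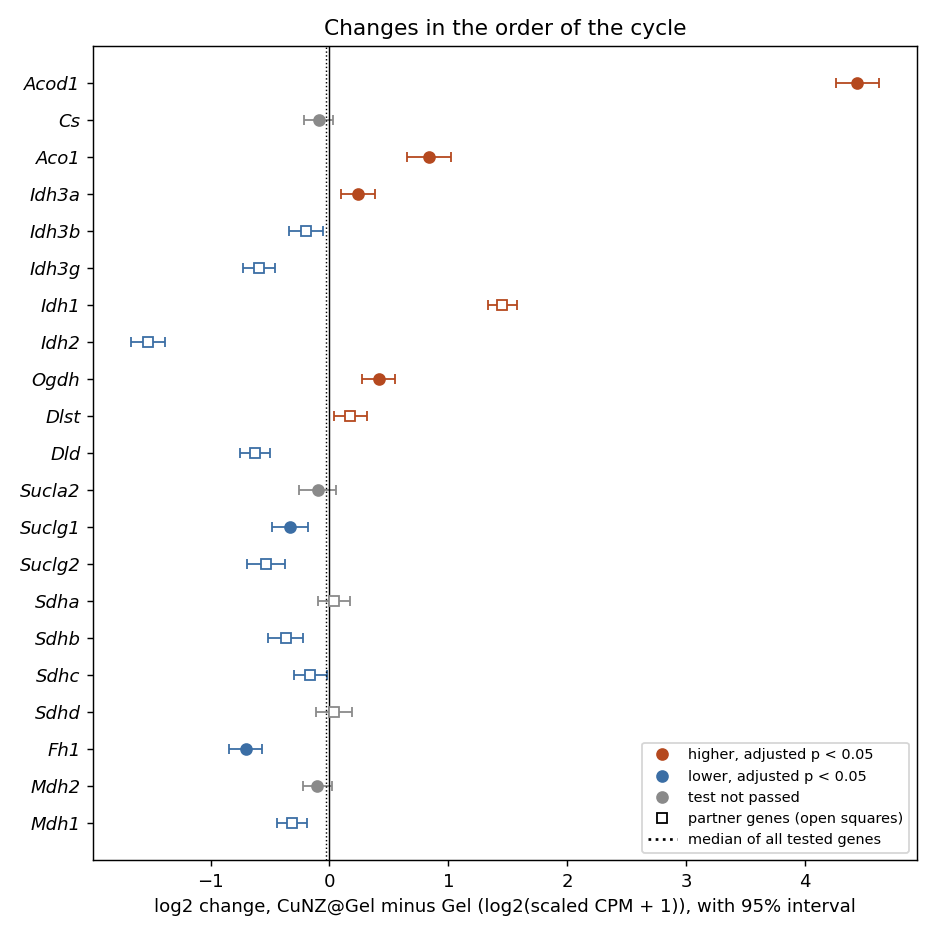
Log2 change (CuNZ@Gel minus Gel) with its 95% limma interval for Acod1, the 8 cycle genes (filled circles) and the 12 partner genes (open squares), from top to bottom in the order of the cycle. Subunits of one enzyme lie on both sides of 0, as Idh3a at 0.24 and Idh3g at -0.59 do, and Acod1 lies at 4.44.

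Ratios of 2 genes within a library do not depend on the scaling of the libraries, and they were set side by side as a description. With 2 libraries a group an exact two-sided permutation test cannot go below p = 0.333, so no test was made of them. Idh3a to Idh3g had a ratio of 0.870 and 0.826 in CuNZ@Gel, against 0.470 and 0.481 in Gel. Idh3a to Idh3b had 0.983 and 0.981 in CuNZ@Gel, against 0.741 and 0.710 in Gel. In both comparisons the catalytic subunit was higher against its regulatory partner in CuNZ@Gel.

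Sucla2 to Suclg2, the ATP-forming against the GTP-forming beta subunit, stood at 1.12 and 1.33 in CuNZ@Gel and at 0.872 and 0.928 in Gel. Sucla2 to Suclg1 was 1.01 and 1.02 in CuNZ@Gel and 0.858 and 0.863 in Gel. Fh1 to Mdh2, the last 2 steps of the cycle, was lower in CuNZ@Gel, at 0.267 and 0.282, against 0.410 and 0.427 in Gel. The ratio of Acod1 to Cs was 0.669 and 0.639 in CuNZ@Gel and 0.0240 and 0.0262 in Gel. For none of these ratios did the groups overlap, but neither did they for 83.2% of all tested genes taken singly. The share over other pairs of genes was not worked out. Idh1 to Idh2 showed the widest gap apart from the ratio with Acod1, at 6.56 and 6.88 in CuNZ@Gel and 0.798 and 0.881 in Gel.

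**Figure D3:**
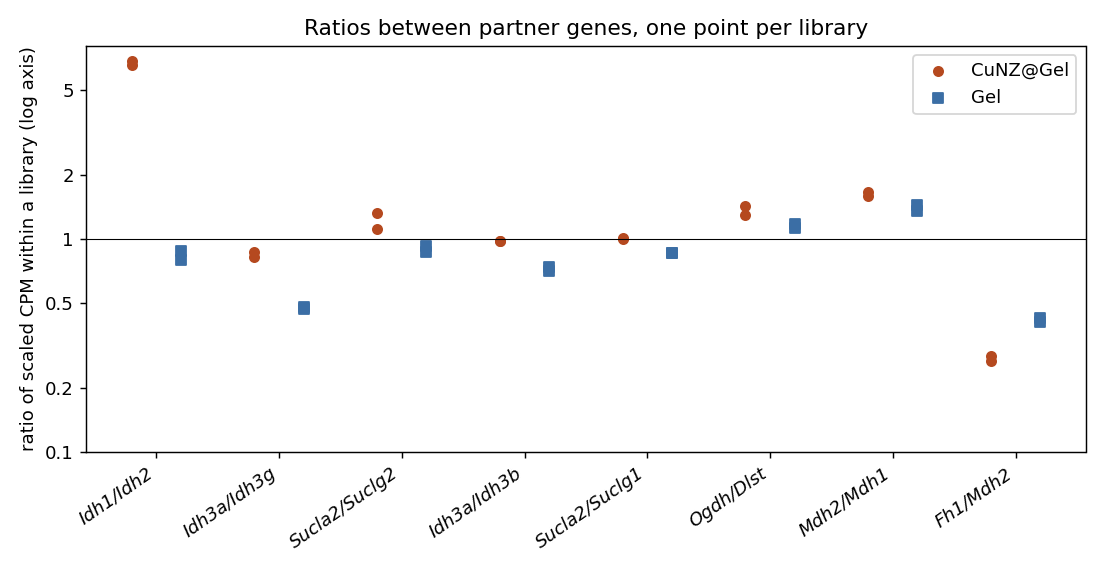
Ratio of the scaled CPM of 2 genes in each library on a log axis, CuNZ@Gel (circles) left of Gel (squares), 2 points per group. Idh1/Idh2 is at 6.56 and 6.88 in CuNZ@Gel against 0.798 and 0.881 in Gel, and Fh1/Mdh2 is the pair shown that is lower in CuNZ@Gel.

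The 8 cycle genes together held 1182 and 1183 scaled CPM in CuNZ@Gel, against 1223 and 1220 in Gel. Their sum was thus 0.968 times the Gel value. Its direction rested on the scaling. The sum was also taken with total reads only, a step added after the data were seen. It was then 1260.35 and 1265 CPM in CuNZ@Gel against 1146 and 1142 in Gel. The share of the sum held by Fh1 was smaller and that held by Ogdh larger in CuNZ@Gel, and shares within a library do not depend on its scaling.

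Divided by the length of the longest annotated transcript, Mdh2 was the most abundant of the 9 genes in both groups, with 203 ± 1.80 scaled CPM per kilobase in CuNZ@Gel and 218 ± 7.07 in Gel (SD, n = 2 each). Cs followed, at 93.5 ± 1.29 per kilobase in CuNZ@Gel and 99.7 ± 2.35 in Gel. Acod1 came next in CuNZ@Gel, at 70.0 ± 1.28, and was the lowest of the 9 in Gel, at 2.86 ± 0.105. In CuNZ@Gel the order went on with Idh3a (43.3), Ogdh (41.0), Fh1 (34.0), Sucla2 (33.3), Suclg1 (26.5) and Aco1 (14.9), of which Fh1 and Sucla2 overlapped between libraries. In Gel it was Fh1 (55.6), Idh3a (36.7), Sucla2 (35.8), Suclg1 (33.5), Ogdh (30.7) and Aco1 (8.24) after Cs, with Sucla2 overlapping both of its neighbours. Fh1 was thus the sixth of the 9 in CuNZ@Gel and the third in Gel. The transcript used in these cells was not determined, so the order rests on the annotated length.

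**Figure D4:**
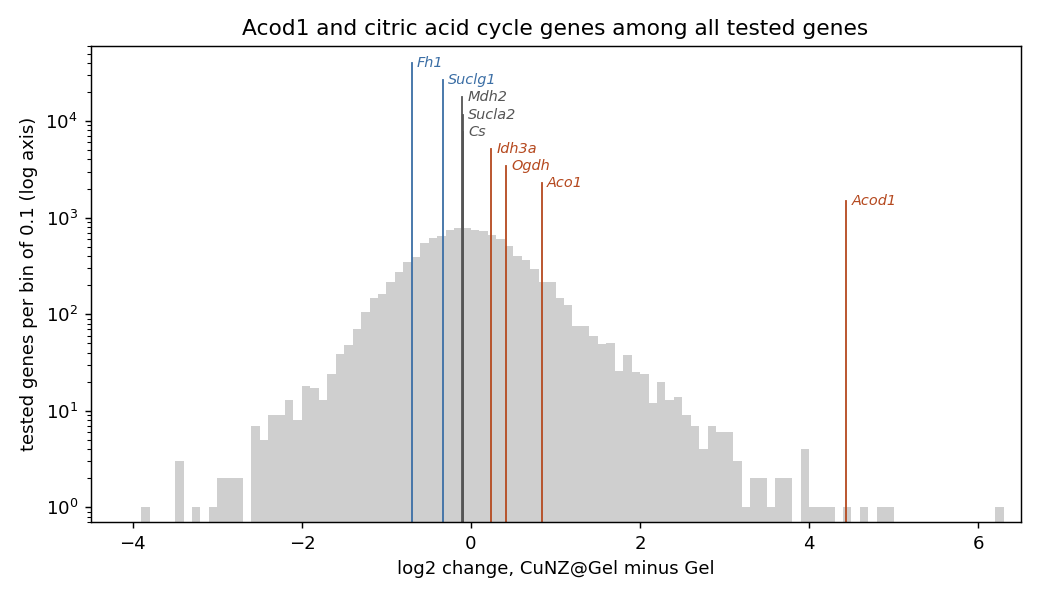
Histogram of the log2 change (CuNZ@Gel minus Gel) of all 11588 tested genes in bins of 0.1, with a log axis for the number of genes and a line for each of the 9 genes (line height has no meaning). The 8 cycle genes lie between -0.70 and 0.84, within the bulk of the genes, and Acod1 lies in the upper tail at 4.44.

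Of 13 genes that feed, refill or drain the cycle, 5 rose, 5 fell and 3 did not pass (median -0.09). This is near the 32.2% raised and 34.8% lowered of all tested genes. The same shares stand beside the counts of the lists that follow. Me1, the cytosolic malic enzyme, rose, with 170 and 176 scaled CPM in CuNZ@Gel against 38.6 and 42.0 in Gel (2.07, adjusted p = 1.06e-15). Acly, which splits citrate in the cytosol, rose as well, with 243 and 224 in CuNZ@Gel against 102 and 111 in Gel (1.12, adjusted p = 6.52e-12). Pck2, the mitochondrial phosphoenolpyruvate carboxykinase, fell to 20.7 and 22.0 in CuNZ@Gel, against 182 and 192 in Gel (-3.07, adjusted p = 4.44e-18). Gpt2, the mitochondrial alanine transaminase that makes 2-oxoglutarate, fell to 20.4 and 21.0 in CuNZ@Gel, against 75.6 and 77.5 in Gel (-1.84, adjusted p = 1.18e-13). These 4 had the smallest p of the list.

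Of 8 mitochondrial carriers, 3 rose, 1 fell and 4 did not pass (median 0.12). Slc25a1, the citrate carrier, had 51.7 and 56.9 scaled CPM in CuNZ@Gel against 35.3 and 31.8 in Gel (0.68, adjusted p = 1.06e-06). Slc25a12 and Slc25a13, the aspartate-glutamate carriers, rose by 0.91 and 0.53 (adjusted p = 3.57e-10 and 7.63e-06). Slc25a11, the 2-oxoglutarate carrier, fell (-0.24, adjusted p = 0.00884), but not without Gel replicate 1 (-0.19, adjusted p = 0.0986), without CuNZ@Gel replicate 1 (-0.16, adjusted p = 0.105), with no filter (adjusted p = 0.0705) or with total reads only (-0.05, adjusted p = 0.585), and after the length and GC correction it stood at 0.003 (adjusted p = 0.970). With total reads only 5 carriers rose and none fell. After the length and GC correction 5 rose and 1 fell, and the falling one was then Mpc2 (-0.24, adjusted p = 0.0115), a subunit gene of the pyruvate carrier that was named after its values were seen.

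Genes tied to the breakdown and transport of itaconate split evenly: of 6 tested, 2 rose and 2 fell (median 0.04). Clybl, whose enzyme cleaves citramalyl-CoA in itaconate breakdown, fell to 7.12 and 7.93 scaled CPM in CuNZ@Gel, against 14.3 and 13.6 in Gel (-0.81, adjusted p = 2.21e-05). Auh, an RNA-binding enoyl-CoA hydratase, fell to 17.0 and 17.9 in CuNZ@Gel, against 28.3 and 28.0 in Gel (-0.66, adjusted p = 1.18e-05). The rising genes encode transporters at the cell surface. Slc13a3, a sodium-dependent dicarboxylate carrier, had 5.99 and 7.49 scaled CPM in CuNZ@Gel against 1.30 and 1.64 in Gel (1.64, adjusted p = 7.97e-08), and Abcg2, an ATP-driven exporter, had 2.52 and 2.22 in CuNZ@Gel against 0.580 and 0.389 in Gel (1.18, adjusted p = 3.49e-05). Abcg2 reached the filter of 1 scaled CPM only in the CuNZ@Gel libraries, so its test rests on the group where it was high. Without CuNZ@Gel replicate 1, or without CuNZ@Gel replicate 2, it missed the filter, and only 5 of these genes were tested. The listed gene Sugct, the coenzyme A transferase of glutarate, was not tested, with 1 read in all 4 libraries together.

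Genes known to take part in switching on Acod1 moved in both directions: of 12 tested, 3 rose and 6 fell (median -0.15). Tfeb, the lysosomal transcription factor, fell to 9.59 and 10.2 scaled CPM in CuNZ@Gel, against 40.1 and 37.8 in Gel (-1.87, adjusted p = 4.20e-12). Irf7, an interferon regulatory factor, fell to 5.04 and 7.49 in CuNZ@Gel, against 16.1 and 17.9 in Gel (-1.33, adjusted p = 1.87e-07). Of the NF-kB subunit genes, Nfkb1 fell to 56.4 and 60.1 in CuNZ@Gel, against 73.4 and 81.8 in Gel (-0.41, adjusted p = 1.27e-04). Rela rose to 58.5 and 52.8 in CuNZ@Gel, against 45.0 and 44.6 in Gel (0.31, adjusted p = 0.00293). Irf1, named after its values were seen because it is a known inducer of Acod1, had 8.26 and 9.27 in CuNZ@Gel against 12.7 and 12.2 in Gel (-0.46, adjusted p = 0.00480). The Irf1 call was lost with total reads only (-0.29, adjusted p = 0.0619) and after the length and GC correction (-0.28, adjusted p = 0.0675). The interferon gene Ifnb1 was not tested, with 1 read in all 4 libraries together. With total reads only this list had 4 raised and 3 lowered genes, and after the length and GC correction, without Gel replicate 1, with no filter or with the replicate block 1 raised and 4 lowered.

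Genes of proteins that itaconate modifies or acts through had 3 of 9 raised and 5 lowered (median -0.15), against 4 and 2 with total reads only, 4 and 3 after the length and GC correction, and 3 and 3 without Gel replicate 1 or with no filter. Nlrp3, the inflammasome sensor, had 78.2 and 75.8 scaled CPM in CuNZ@Gel against 26.4 and 25.6 in Gel (1.53, adjusted p = 1.26e-12), and the kinase gene Jak1 had 183 and 179 in CuNZ@Gel against 102 and 105 in Gel (0.80, adjusted p = 6.70e-10). Atf3, a stress-induced transcription factor, fell to 78.5 and 80.7 in CuNZ@Gel, against 141 and 147 in Gel (-0.84, adjusted p = 6.44e-10). Nfkbiz, which encodes IkB-zeta, an inflammatory regulator whose induction is limited by itaconate derivatives through ATF3, fell to 9.96 and 9.08 in CuNZ@Gel, against 15.1 and 16.6 in Gel (-0.68, adjusted p = 9.76e-05).

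The 3 genes whose centred log2 values over the 4 libraries lay nearest to those of Acod1 were Cd36, Gm41537 and Ptpn14. The Euclidean distances were 0.21, 0.26 and 0.30 log2 units, and with 2 groups of 2 libraries this measure is set mostly by the size of the change. Gm41537 and Ptpn14 reached the filter of 1 scaled CPM only in the CuNZ@Gel libraries, so they were tested through the group where they were high. Both lay near 0 in Gel, where the pseudocount of 1 holds the change down. Their log2 changes of 4.21 and 4.19, and their nearness to Acod1 at 4.44, depend on that pseudocount. Cd36, a scavenger receptor, had 305 and 285 scaled CPM in CuNZ@Gel against 10.2 and 11.6 in Gel. Gm41537 had 18.9 and 16.2 in CuNZ@Gel and was at 0 in both Gel libraries, so that it was at least 77.9-fold higher when Gel is set to the value of 3 reads per library. Ptpn14, a tyrosine phosphatase gene, had 612 reads in the CuNZ@Gel libraries together and 3 in the Gel libraries. Scaled by library, the ratio was 172, and its exact 95% interval from 58.5 to 836 covers counting error only.

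**Figure D5:**
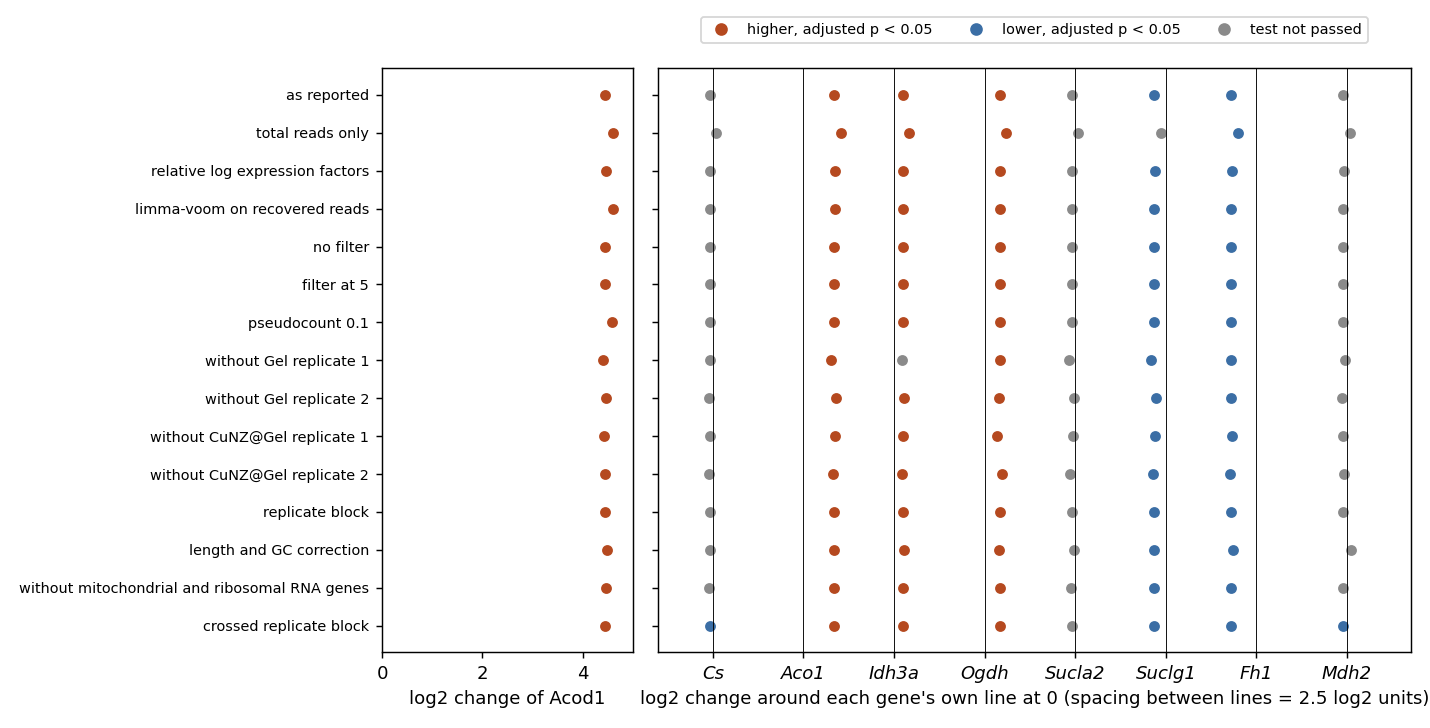
Log2 change (CuNZ@Gel minus Gel) of Acod1 (left) and of each cycle gene (right, around its own line at 0) as reported and under 14 alternatives, coloured by direction where the adjusted p is under 0.05 and grey where it is not. Acod1, Aco1, Ogdh and Fh1 keep direction and call throughout, whereas Cs, Sucla2 and Mdh2 lie near their lines.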

How the data were processed

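Per the labels' protocols, RNAiso Plus was used for extraction and the CORALL RNA-seq V2 kit for the libraries. Each deposited file held a log2 value for every gene symbol. Fastp, STAR, Salmon and GATK are named with build GRCm39, per the submitters' processing notes; of their versions and roles, the annotation, strand use and the normalization, nothing is stated in the sources used here.

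As the values show, each was log2(x + 1), with x the CPM divided by a further factor of 0.936 to 1.07 per library and not by gene length. Between 92.8% and 93.5% of log2 values up to 1 were whole multiples of 1 read within 0.02 reads, which gave library totals of 13717000 to 14886000. A count of 0 allows up to 3 reads, which came to 0.189 to 0.234 scaled CPM.

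Genes reaching 1 scaled CPM in 2 or more libraries were tested on the deposited log2 values (pseudocount 1) in limma 3.58.1 (R 4.3.3), using a variance trend and the group as the only term, CuNZ@Gel minus Gel, over all 4 libraries. P-values were adjusted by Benjamini-Hochberg over all tested genes (threshold 0.05). The procedure was also tested on simulated data.

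Alternatives were total reads only, relative log expression factors, limma-voom on recovered reads, no filter or one at 5 scaled CPM, the pseudocount 0.1, each library left out, the replicate number as a block, a correction for transcript length and GC content (longest transcript in GENCODE vM21, found for 94.0% of tested genes), and removal of mitochondrially encoded and ribosomal RNA genes before scaling. A crossed block was added after the data were seen.

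The 9 genes and all lists were chosen with earlier results of these data known. Named were the 9 genes, the 12 partner genes, up to 4 genes per other pathway list with the smallest p past the threshold, and the 3 genes most like Acod1; any other gene was picked with its values known. A partner gene and a cell type marker are not reported here and are left out of their lists' counts. Promoter windows came from RefSeq (GRCm38.p6), where 8 of the 9 genes matched by symbol and 9 motifs were searched.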

Additional observations from a re-analysis of the deposited data

How the results depend on the processing

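Acod1, Aco1, Ogdh and Fh1 kept their direction and their side of the threshold under all 14 alternatives, with log2 changes of 4.41 to 4.62, 0.77 to 1.02, 0.35 to 0.60 and -0.73 to -0.51. Scaling by total reads only turned Cs (0.10), Sucla2 (0.087) and Mdh2 (0.088), none of which passed, and took the call from Suclg1 (-0.14, adjusted p = 0.0930), leaving 1 lowered gene of the 9; the partner genes then had 4 raised and 5 lowered. The length and GC correction turned Mdh2 (0.11, adjusted p = 0.0554); the cause was not tested in either case. With no filter 1 partner gene was raised. Leaving out 1 library at a time gave 0.21 to 0.27 for Idh3a, which was lost without Gel replicate 1, and 1 to 2 raised partner genes; a group with 1 library is then assumed to vary like the other. Replicates of the same number did not deviate together. Across 11588 tested genes the difference between replicates 1 and 2 correlated at -0.116 between the groups. The titles give replicate numbers but no pairing, so this sign does not show that crossed numbers belong together. The replicate block left 6 of the 9 genes called, 1 raised and 6 lowered partner genes and 7489 genes in all, against 7770 without it. The crossed block, added after the data were seen, called 8370 genes in all and 4 lowered genes of the 9, with Cs (-0.092) and Mdh2 (-0.10) among them. A negative correlation makes the residuals of a crossed block smaller, so its added calls are no separate result. Acod1 in Gel rests on about 100 reads per library, and with 2 libraries a group small changes such as those of Cs, Sucla2 and Mdh2 are limited by the spread between libraries.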
